A study of Mus musculus with 24 samples.

Results

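The Schlafen genes of the mouse were followed through 24 polyA RNA-seq libraries of cultured myeloid cells. The members were the 7 entries of the gene table named Slfn1, Slfn2, Slfn3, Slfn4, Slfn5, Slfn8 and Slfn9, out of 54532 in all, and they were picked by symbol alone. Marrow was grown either into macrophages (BMDMs), in supernatant of the fibroblast line L929, or into dendritic cells (BMDCs), in GM-CSF and IL-4. The donors carried floxed Tmem173, the gene of the DNA-sensing adaptor STING, and all of them received tamoxifen, so the WT group (Tmem173fl/fl) also has floxed alleles and the drug. The CRE group (Tmem173fl/fl with Lzym-Creert2, which the study's methods write as Lyz2-Creert2) adds an inducible Cre driven by a promoter of myeloid cells. Cells of each type and genotype were left as control (CT) or were given DMXAA (DX), an agonist of mouse STING, at 40 µM according to the series. The study's methods use a mass unit instead, so the concentration is uncertain. The 8 groups held 3 libraries each, and neither the age of the donors nor whether the libraries came from separate mice is given in the labels. The p-values therefore measure the spread between these libraries.

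Schlafen proteins share an N-terminal core related to RNA-binding and RNA-cutting enzymes, and most of the genes are known as interferon-stimulated. In this pathway, an agonist of STING leads to type I interferon, which acts through its receptor on STAT and IRF factors at promoters of interferon-stimulated genes. The short members, Slfn1 and Slfn2, hold little beyond the core. Slfn1 was first described as a brake on thymocyte growth, and Slfn2 is needed for the quiescence of T cells and monocytes. The intermediate members are Slfn3, studied in gut epithelial differentiation, and Slfn4, a gene of myeloid cells. The long members, Slfn5, Slfn8 and Slfn9, add a helicase-like C-terminal part, and Slfn5 is found in the nucleus.

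The 7 genes formed a single block of 263.8 kb on chromosome 11 (GRCm38, 82951349 to 83215154). Along the chromosome their order was Slfn5, Slfn9, Slfn8, Slfn2, Slfn1, Slfn4 and Slfn3, with Slfn9 and Slfn8 on the minus strand and the others on the plus strand. RefSeq promoter windows (GRCm38.p6, 250 bases before to 50 after the annotated start) were found for 7 of the 7 members. They were searched on both strands for an interferon-stimulated response element core, which is GAAA, any 2 bases and GAAA again, and 3 members held it, namely the long ones. Among all 32851 windows, 3.44% held that core, and of the 27025 genes with a window, 3.99% had it. The gamma-activated site TTCNNNGAA (8.3% of windows) and the kappa B word, GGGA, any base and TTTCC (0.411%), were in 0 members. The following 60-base stretches of the gene strand show the core in capitals, as spelled in Slfn5 and as its reverse complement in Slfn8 and Slfn9.
Slfn5 (chr11:82951922-82951981, plus strand): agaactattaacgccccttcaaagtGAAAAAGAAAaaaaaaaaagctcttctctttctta
Slfn8 (chr11:83020824-83020883, minus strand): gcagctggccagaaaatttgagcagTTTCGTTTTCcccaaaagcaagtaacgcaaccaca
Slfn9 (chr11:82991841-82991900, minus strand): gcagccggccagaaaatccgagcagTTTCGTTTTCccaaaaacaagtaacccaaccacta
The core began 155 bases before the RefSeq start in Slfn5, 48 before it in Slfn8 and 45 before it in Slfn9. The gene coordinates used for the block start Slfn5 earlier, at 82951349, so its window lies inside the gene as placed there. RefSeq lists another Slfn8 start, which the same core precedes by 136 bases. The Slfn8 and Slfn9 windows shared a run of 20 bases. The windows of the short and intermediate members, where the core was not found, shared the 9-base word ACTTCCTGG on the gene strand. That word was found by reading these windows, and 0.843% of all windows held it on either strand. It stands in capitals in the stretches shown here.
Slfn2 (chr11:83065031-83065090, plus strand): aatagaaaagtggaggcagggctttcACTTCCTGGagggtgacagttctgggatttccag
Slfn1 (chr11:83116720-83116779, plus strand): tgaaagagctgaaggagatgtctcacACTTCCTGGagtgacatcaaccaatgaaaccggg
Slfn4 (chr11:83175087-83175146, plus strand): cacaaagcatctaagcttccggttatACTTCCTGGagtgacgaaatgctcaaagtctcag
Slfn3 (chr11:83191262-83191321, plus strand): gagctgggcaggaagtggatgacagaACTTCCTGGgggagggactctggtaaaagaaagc
These matches describe letters in a window and are not evidence that a factor bound there.

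Total counts ran from 15657347 to 18912887 per library. The 4 BMDM libraries numbered 3, 1 in each BMDM group, stood apart from the others. Their summed macrophage markers came to 42.2 to 70.6 CPM (counts scaled by the library total), against 9580 to 21400 in the 8 BMDM libraries numbered 1 and 2, and their summed fibroblast markers to 12700 to 19200 CPM against 28.8 to 458. The top of that last range came from WT 2, with 458 CPM in control and 422 under DMXAA. The rest of the BMDM libraries numbered 1 and 2 held 28.8 to 63.1 CPM. The part of this in the CRE and WT differences was not tested. Values of the libraries numbered 3 are given apart, and BMDM tests used the 8 other libraries unless stated. In BMDCs the closest libraries lay across genotype labels. WT 3 with CRE 1 and WT 2 with CRE 3 differed by a chi-square per gene of 3.59 to 5.3, against at least 16.5 within a label, although none matched within sampling noise. The targeted Tmem173 read 28.8 to 55.3 FPKM (fragments per kilobase of transcript, scaled by library size) in WT BMDCs and 19.7 to 36.9 in CRE BMDCs, which overlapped. In BMDMs 1 and 2 it read 14.7 and 9.9 in WT against 10.4 and 8.76 in CRE in control, which overlapped, and 22.8 to 31.9 in WT against 9.12 to 10.1 in CRE under DMXAA, which did not. Counts per gene do not resolve the floxed exons, so WT and CRE are used here as labels. Lower RNA per cell and fewer cells of a type cannot be told apart in such bulk libraries.

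All 7 members rose under DMXAA in WT BMDCs, CRE BMDCs, WT BMDMs and CRE BMDMs alike (edgeR quasi-likelihood test, Benjamini-Hochberg adjusted p under 0.05). Among all tested genes, 17.0%, 14.0%, 18.4% and 7.28% rose in those 4 comparisons, in the same order. The median log2 fold change of the members was 4.14 in WT BMDCs and 4.83 in WT BMDMs, against 0.01 and -0.08 over all tested genes. The 2 BMDM results need the libraries numbered 3 to be left out. With all 12 BMDM libraries edgeR called 0 members in WT or CRE, though 4 had an unadjusted p under 0.05 in each. With all 12 and the replicate number as a block, a fit chosen after seeing the data, 7 and 6 passed.

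**Figure D1:**
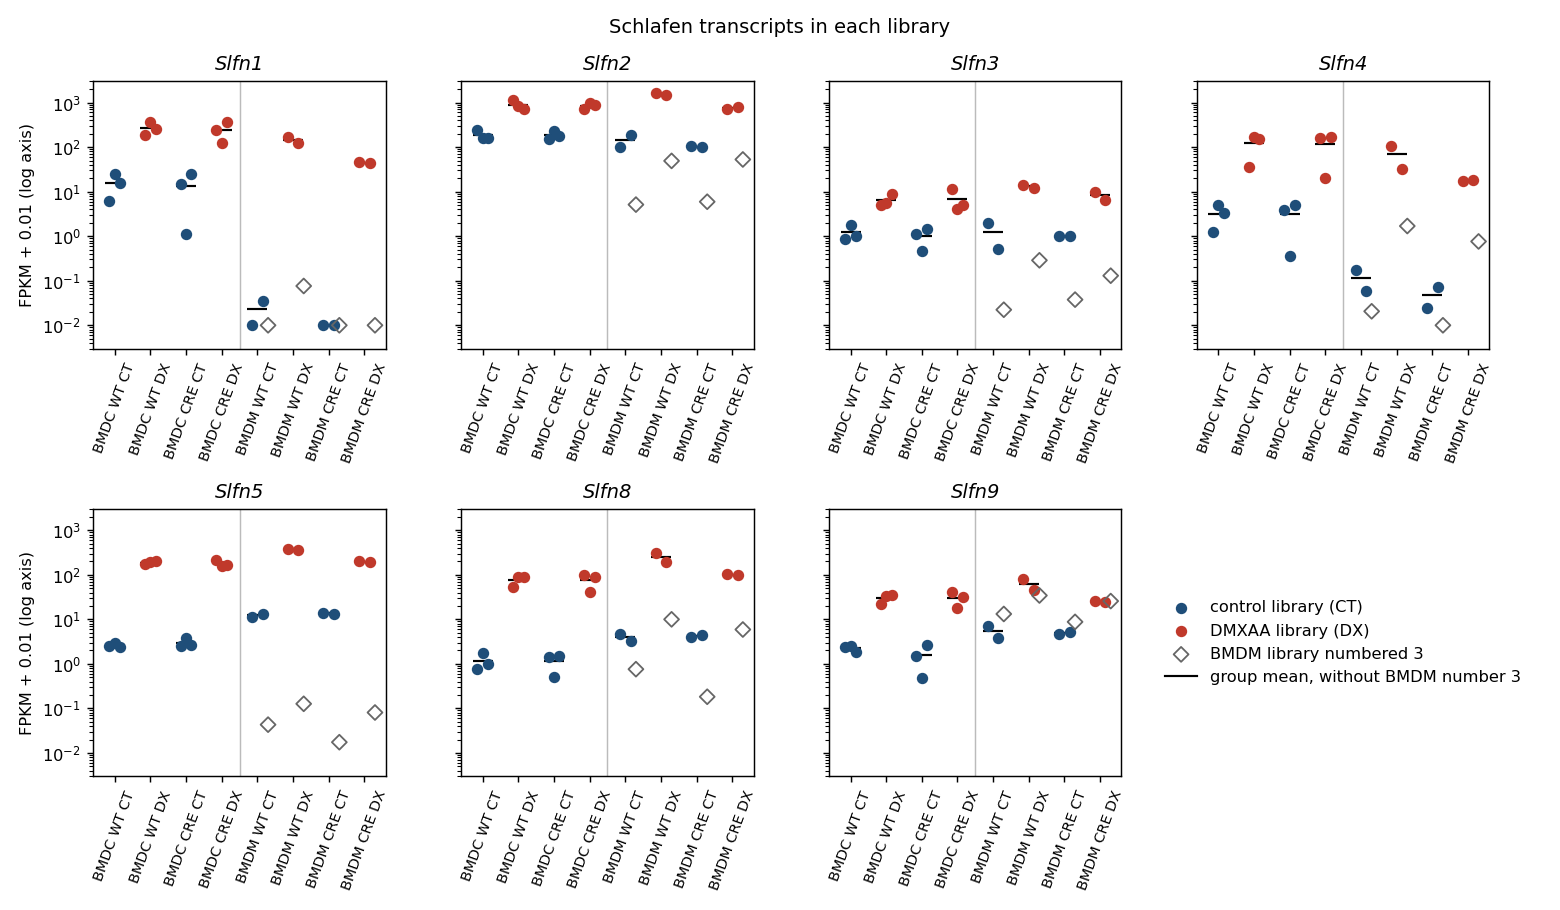
FPKM of each member by library, with 0.01 added on a log axis; dots are libraries, black bars the group means without number 3, and open diamonds the BMDM libraries numbered 3. Every DMXAA dot lies above every control dot of its own group pair, and for Slfn2, Slfn3, Slfn4, Slfn5 and Slfn8 every diamond lies below the dots of its group.

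Slfn2 was the most abundant member in each of the 20 libraries other than those numbered 3. In WT BMDCs it went from 237, 162 and 156 FPKM in control to 1119, 841 and 721 under DMXAA. In CRE BMDCs it went from 155, 227 and 179 to 699, 982 and 859. The control and DMXAA ranges did not overlap, and the log2 fold change was 2.25 ± 0.23 (SE) in WT (adjusted p = 3.99e-05) and 2.15 ± 0.23 in CRE (adjusted p = 6.62e-05). In BMDMs Slfn2 went from 99.7 and 190.4 FPKM to 1622 and 1482 in WT and from 105 and 98.2 to 731 and 789 in CRE. Its log2 fold change there was 3.30 ± 0.31 (adjusted p = 0.000411) and 2.88 ± 0.30 (adjusted p = 0.00208). It had the smallest estimated fold change of the members in each BMDC genotype while adding the most FPKM.

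Slfn1, the other short member, separated the cell types at rest. Control BMDCs held 6.30, 24.3 and 15.3 FPKM in WT and 14.7, 1.11 and 24.7 in CRE. The 4 control BMDMs held 0, 1, 0 and 0 counts, where a count of 0 allows up to 0.159 to 0.177 CPM. Transcripts of this gene were thus at or below the detection floor in control BMDMs. Under DMXAA Slfn1 reached 192, 370 and 261 FPKM in WT BMDCs and 243, 125 and 371 in CRE BMDCs. It reached 170.4 and 123 FPKM in WT BMDMs and 46.3 and 43.6 in CRE BMDMs. The BMDC log2 fold change was 4.14 ± 0.90 in WT (adjusted p = 0.0046) and 4.16 ± 0.90 in CRE (adjusted p = 0.0058). In WT BMDMs the ratio of summed CPM was 7280, with a 95% counting interval of 1310 to 288000 around the single control count. In CRE BMDMs Slfn1 was at least 442-fold higher, taking the floor of 3 counts per library.

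Slfn4 behaved much like Slfn1 across the libraries. It went from 1.22, 5.0 and 3.29 FPKM to 36.6, 173 and 154 in WT BMDCs, and from 3.79, 0.348 and 5.06 to 162, 20.6 and 168 in CRE BMDCs. The log2 fold change was 5.24 ± 1.11 in WT (adjusted p = 0.00389) and 5.23 ± 1.11 in CRE (adjusted p = 0.00515). In control BMDMs it was near the floor, with 13 and 4 counts in WT and 1 and 5 in CRE. DMXAA took it to 106 and 32.1 FPKM in WT BMDMs and to 17.4 and 17.97 in CRE BMDMs. The fitted log2 fold change was 9.24 ± 0.83 in WT (adjusted p = 0.00035) and 8.70 ± 0.90 in CRE (adjusted p = 0.00191), and these sizes rest on the few control counts.

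Slfn3 was the least abundant member under DMXAA in these 20 libraries, with 4.09 to 11.5 FPKM over the 6 BMDC libraries and 6.57 to 14.1 over the 4 BMDM libraries. Its log2 fold change was 2.41 ± 0.50 in WT BMDCs (adjusted p = 0.00358) and 2.76 ± 0.51 in CRE BMDCs (adjusted p = 0.00241). In BMDMs it was 3.28 ± 0.57 in WT (adjusted p = 0.00487) and 3.0 ± 0.57 in CRE (adjusted p = 0.0227). Of the 50-base words in Slfn3 transcripts, 16.0% also stand in transcripts of other genes, with 7.39% in Slfn4. Of its 100-base words 2.92% were shared, nearly all with Gm11427, so reads could be split with either gene depending on their length.

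Among the long members, Slfn5 had the narrowest spread between BMDC replicates, at most 1.47 times between the highest and lowest library of a group. It went from 2.55, 2.88 and 2.39 FPKM to 173, 191 and 199 in WT BMDCs, and from 2.53, 3.72 and 2.72 to 220.4, 157 and 166 in CRE BMDCs. The log2 fold change was 6.15 ± 0.24 in WT (adjusted p = 3.46e-08) and 5.90 ± 0.23 in CRE (adjusted p = 3.92e-08). In BMDMs Slfn5 started higher, at 11.6 and 12.97 FPKM in WT and 14.01 and 13.1 in CRE. It reached 383 and 368 FPKM in WT BMDMs, with a log2 fold change of 4.83 ± 0.14 (adjusted p = 7.32e-06). In CRE BMDMs it reached 205 and 189.9 FPKM, with a log2 fold change of 3.84 ± 0.13 (adjusted p = 2.6e-05).

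Slfn8 showed fold changes of the same order in BMDCs. It went from 0.777, 1.74 and 0.971 FPKM to 52.5, 89.8 and 90.6 in WT, and from 1.42, 0.492 and 1.53 to 100.2, 41.3 and 87.4 in CRE. The log2 fold change was 6.04 ± 0.56 in WT (adjusted p = 1.75e-05) and 6.03 ± 0.56 in CRE (adjusted p = 2.01e-05). WT BMDMs went from 4.8 and 3.26 FPKM to 313 and 196, and CRE BMDMs from 3.95 and 4.56 to 102 and 98.9. Both BMDM genotypes rose, by a log2 of 5.87 ± 0.31 (adjusted p = 3.97e-05) and 4.54 ± 0.29 (adjusted p = 0.000196).

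Slfn9, the neighbour of Slfn8, responded less. It went from 2.33, 2.52 and 1.87 FPKM to 22.1, 32.9 and 35.4 in WT BMDCs, a log2 fold change of 3.73 ± 0.52 (adjusted p = 0.000312). CRE BMDCs went from 1.52, 0.471 and 2.62 to 40.1, 17.9 and 31.4, a log2 fold change of 4.25 ± 0.54 (adjusted p = 0.000203). WT BMDMs went from 7.13 and 3.87 FPKM to 79.7 and 46.0, and CRE BMDMs from 4.72 and 5.20 to 25.6 and 23.97. The log2 fold changes were 3.40 ± 0.36 (adjusted p = 0.00066) and 2.30 ± 0.34 (adjusted p = 0.00972). In CRE BMDMs the calls of Slfn9 and Slfn3 depended on every library, since leaving out any of the 4 CRE libraries raised both adjusted p-values above 0.05, to 0.0612 to 0.192. Slfn8 and Slfn9 shared 14.6% and 11.9% of their 50-base words with other genes, mostly with the pseudogene Slfn10-ps that lies between Slfn8 and Slfn2, and 3.38% and 3.71% of their 100-base words.

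**Figure D2:**
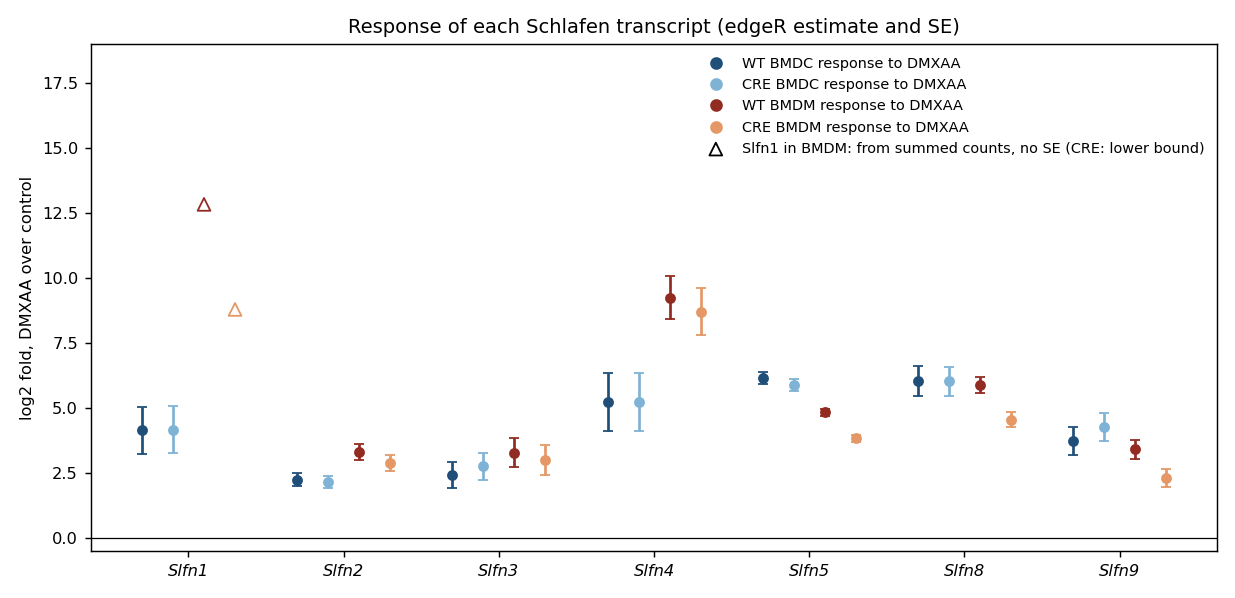
log2 fold change of DMXAA over control for each member in the 4 cultures; dots with bars are edgeR estimates with SE, and open triangles are Slfn1 in BMDMs from summed counts (WT a ratio, CRE a lower bound). All values lie above 0, from 2.15 for Slfn2 in CRE BMDCs upward, and CRE BMDMs lie lowest of the 4 for Slfn5, Slfn8 and Slfn9.

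Slfn1 and Slfn4 varied most between BMDC libraries of a group, and Slfn2 moved the other way. WT 1 and CRE 2 were the lowest library of their group for both genes, in control and under DMXAA. The same held for Slfn3 and Slfn8. It held for Slfn9 except in control WT, where WT 3 read 1.87 FPKM against 2.33 in WT 1, and for Slfn5 under DMXAA only. In control CRE BMDCs the highest library held 22.3 times the lowest for Slfn1 and 14.6 times for Slfn4. The same WT 1 and CRE 2 libraries had the highest Slfn2 of their group in control and under DMXAA. CRE 2 also held 2164 and 2043 CPM of summed macrophage markers in control and under DMXAA, against 5958 to 8947 in the other 10 BMDC libraries. This sum mostly reads Lyz2, which ran from 1180 to 8110 CPM over the BMDC libraries. The next highest marker, Adgre1, reached at most 374 CPM, so the sum does not show a fall of the list as a whole. The summed neutrophil markers of CRE 2 were 415 and 189 CPM against 11.1 to 34.8 in the other 10. WT 1 had the highest summed dendritic cell markers, 9796 and 9931 CPM, a sum to which Cd74 gave the most. Its median dendritic cell marker in control was the lowest of the control BMDC libraries, 99.4 CPM against 112 to 213, and under DMXAA it was 322 CPM. The part of these markers in the spread was not tested.

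**Figure D3:**
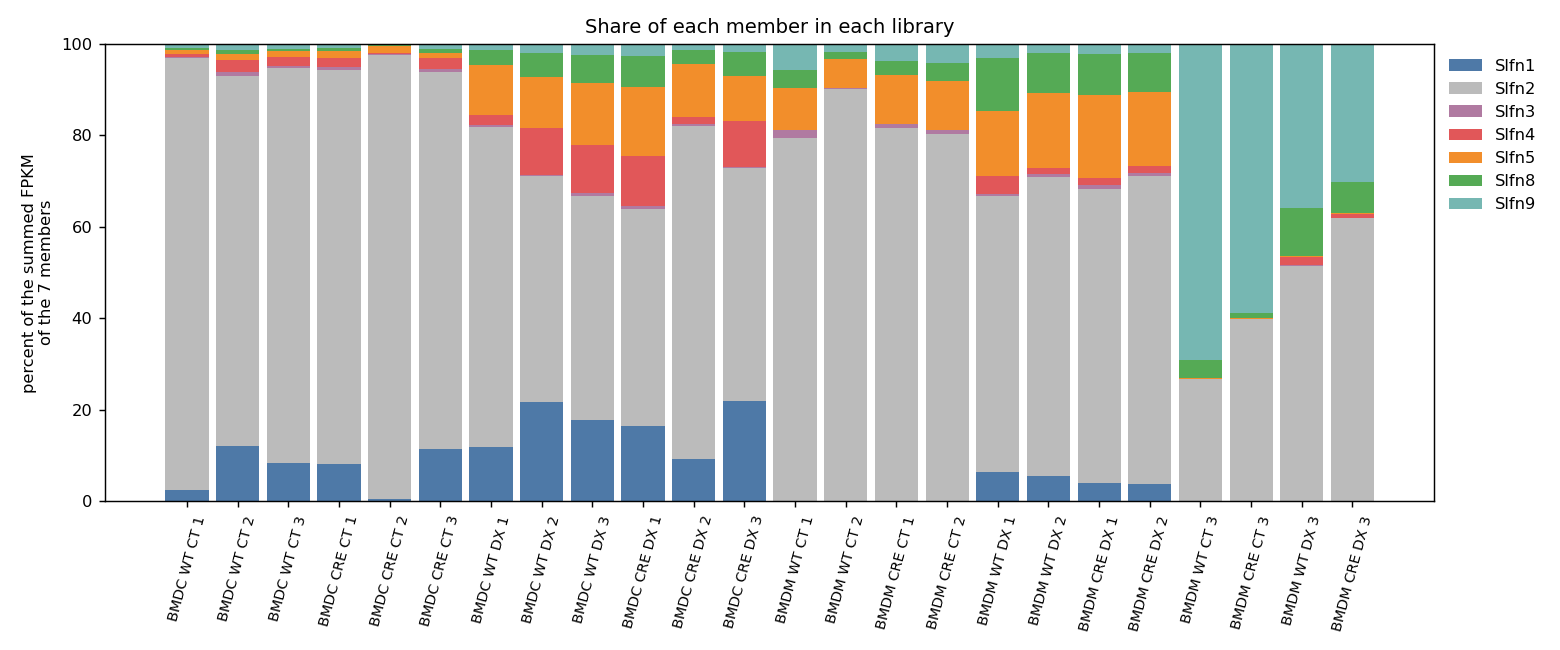
Share of each member in the summed FPKM of the 7 members, as stacked bars for each library, ordered as BMDC, BMDM and BMDM number 3, with control before DMXAA in each. Slfn2 takes 79.5% to 97.2% in control BMDCs and BMDMs, and Slfn9 takes 58.8% and 69.0% in the control libraries numbered 3.

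DMXAA changed the make-up of the family as well as its amount. The summed FPKM of the 7 members rose from a range of 181 to 251 in control BMDCs to 1348 to 1703 under DMXAA, and from 122 to 211 to 1137 to 2688 in BMDMs 1 and 2. The share of Slfn2 went from 80.9% to 97.2% in control BMDCs to 47.4% to 72.9% under DMXAA, which did not overlap. Slfn5 rose in share from 1.01% to 1.59% to 9.83% to 14.9% in the same BMDC libraries. In control WT BMDCs the means ran in the order Slfn2, Slfn1, Slfn4, Slfn5, Slfn9, Slfn3 and Slfn8, where Slfn4 overlapped Slfn5, Slfn5 overlapped Slfn9 and Slfn3 overlapped Slfn8. In control WT BMDMs the order was Slfn2, Slfn5, Slfn9, Slfn8, Slfn3, Slfn4 and Slfn1, with overlap of Slfn9 and Slfn8 only. Under DMXAA the order in WT BMDCs was Slfn2, Slfn1, Slfn5, Slfn4, Slfn8, Slfn9 and Slfn3, where Slfn1 overlapped Slfn5 and Slfn4 overlapped Slfn8. In WT BMDMs under DMXAA it was Slfn2, Slfn5, Slfn8, Slfn1, Slfn4, Slfn9 and Slfn3, with overlap of Slfn4 and Slfn9 only.

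The study used CRE and WT cells to ask whether IL-12 signalling depends on STING. Here they are compared as labels only, since Tmem173 overlapped between them in BMDCs and in control BMDMs. In BMDMs 1 and 2 under DMXAA, 4 of the 7 members were called, beside 19.3% of all tested genes in either direction. All 4 were lower in CRE and 0 were higher, and the share of tested genes that were lower is not given here. Slfn5 was lower by a log2 of -0.88 ± 0.12 (adjusted p = 0.00528), Slfn8 by -1.29 ± 0.25 (adjusted p = 0.0166), Slfn9 by -1.29 ± 0.33 (adjusted p = 0.0385) and Slfn1 by -1.66 ± 0.22 (adjusted p = 0.00725). The CRE and WT ranges did not overlap for any of the 7 members. With 2 libraries a side such a separation is weak, and its share over all tested genes was not counted. Slfn2 differed by -0.98 ± 0.29 (adjusted p = 0.0566) and Slfn4 by -1.91 ± 0.55 (adjusted p = 0.0548), and Slfn3 by -0.63 ± 0.52 (adjusted p = 0.436). Slfn2 passed under 7 alternatives, among them DESeq2 (adjusted p = 0.00238) and limma (adjusted p = 0.0457), and Slfn4 with the replicate block (adjusted p = 0.0462). With 2 libraries a side these calls rested on single libraries. Without CRE DMXAA library 1 or 2, 0 members passed, without WT DMXAA library 1, 3 passed, and without WT DMXAA library 2, 5 passed. With all 12 BMDM libraries edgeR called 0 members without the block and 0 with it, and 1 and 5 had an unadjusted p under 0.05.

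In control BMDMs 0 members differed between the labels, as did 0.0432% of all tested genes, and 0 members had an unadjusted p under 0.05 or passed with DESeq2 or limma. The genotype by DMXAA interaction in BMDMs, which tests the response itself, passed for 1 member, against 3.66% of tested genes. The response of Slfn5 was smaller in CRE by a log2 of -0.99 ± 0.17 (adjusted p = 0.0355). This call was lost without WT DMXAA library 1 (adjusted p = 0.0625) and without any of the 4 CRE libraries (adjusted p = 0.185 to 0.217). Slfn8 had an interaction of -1.33 ± 0.36 (adjusted p = 0.104) and Slfn9 of -1.11 ± 0.47 (adjusted p = 0.248). With the replicate number as a block within genotype, which rests on 2 pairs a label here, both passed (adjusted p = 0.00652 and 0.00778).

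In BMDCs 0 members differed between CRE and WT under DMXAA, in control or in the interaction, and 0.0% of tested genes did by edgeR in each. An unadjusted p under 0.05 was reached by 108, 99 and 60 genes in those comparisons, among them 0 members, and DESeq2 and limma likewise called 0 members. The data do not show equality. For Slfn5 under DMXAA the log2 difference was -0.04 with a 95% interval of -0.46 to 0.37, and for Slfn2 it was -0.06 with -0.55 to 0.43. For Slfn4 the interval ran from -2.07 to 1.97 and for Slfn1 from -1.88 to 1.59. These include the -1.91 and -1.66 estimated in BMDMs. The fit did not pair the libraries that lay close across labels, so these widths belong to an unpaired comparison. Under DMXAA Slfn1 read 370 FPKM in WT 2 and 371 in CRE 3, and 261 in WT 3 and 243 in CRE 1. The remaining WT 1 and CRE 2 read 192 and 125. The Slfn5 interval in BMDCs did not reach the -0.88 estimated in BMDMs, but the difference between cell types in the CRE effect was not tested.

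**Figure D4:**
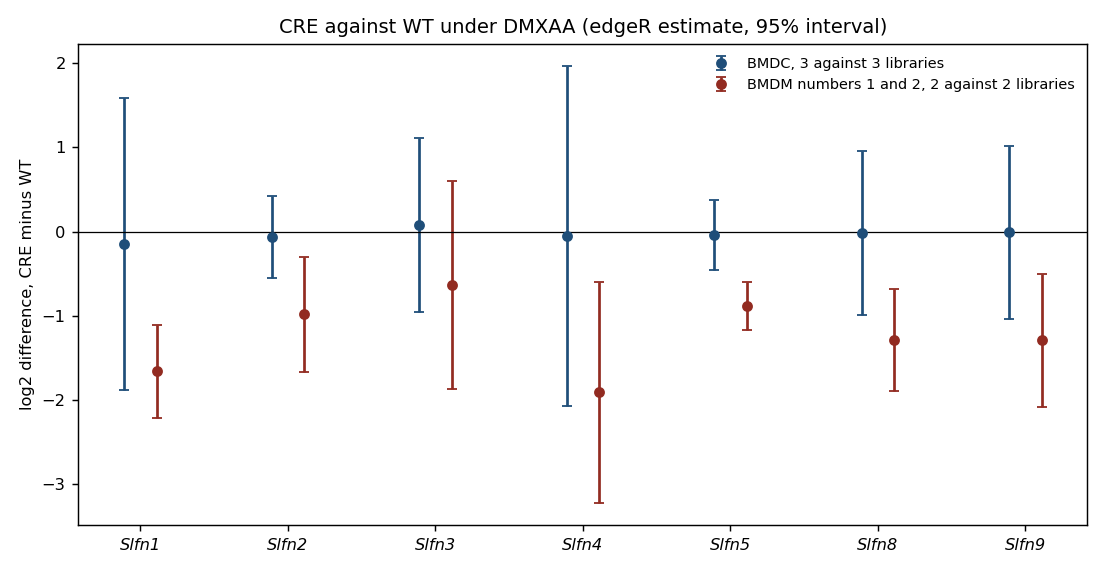
log2 difference of CRE minus WT under DMXAA for each member, with 95% intervals, in BMDCs (3 against 3 libraries) and BMDMs 1 and 2 (2 against 2 libraries). The BMDC estimates lie between -0.15 and 0.08 and every interval includes 0, while the BMDM estimates lie between -1.91 and -0.63.

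Between the cell types, the WT libraries were compared in 1 fit of 20 libraries. In control 4 members differed, against 28.6% of tested genes. Slfn5 and Slfn8 were lower in BMDCs, by a log2 of -2.24 ± 0.19 (adjusted p = 4.3e-07) and -1.79 ± 0.46 (adjusted p = 0.00812). Slfn4 was higher in BMDCs by 4.91 ± 1.38 (adjusted p = 0.0137), and Slfn1 by a ratio of summed CPM of 1190, with a counting interval of 213 to 46900. Slfn9 differed by -1.30 ± 0.48 (adjusted p = 0.0561), and Slfn2 and Slfn3 did not pass. Slfn4 lost its call without BMDM WT control library 1 (adjusted p = 0.0649) or 2 (adjusted p = 0.105), and Slfn8 without library 1 (adjusted p = 0.0647). With limma at a pseudocount of 1 Slfn4 was 1.805 (adjusted p = 0.15). With all BMDM libraries Slfn5 was -1.67 (adjusted p = 0.657) and Slfn8 -1.34 (adjusted p = 0.49), so both calls were lost, while Slfn9 passed at -1.83 (adjusted p = 0.0326).

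Under DMXAA 3 members were lower in WT BMDCs than in WT BMDMs, where 16.1% of tested genes were. Slfn8 differed by a log2 of -1.67 ± 0.44 (adjusted p = 0.00853), Slfn5 by -0.97 ± 0.18 (adjusted p = 0.000849) and Slfn2 by -0.77 ± 0.26 (adjusted p = 0.0372). Slfn1 and Slfn4, which separated the cell types at rest, differed under DMXAA by 0.94 ± 0.81 (adjusted p = 0.412) and 0.87 ± 0.96 (adjusted p = 0.529). Slfn8 lost its call without BMDM WT DMXAA library 1 (adjusted p = 0.1). Slfn2 lost it without either BMDM library (adjusted p = 0.154 and 0.0842) and without BMDC library 2 or 3 (adjusted p = 0.0967 and 0.116). The response differed between cell types for 2 members, Slfn5 and Slfn1, against 2.99% of tested genes. The log2 response of Slfn5 was larger in BMDCs by 1.27 ± 0.26 (adjusted p = 0.0154), and that of Slfn1 was smaller (adjusted p = 0.022), a size that the near-empty BMDM controls do not fix. Without BMDM WT DMXAA library 1 the adjusted p of Slfn5 was 0.0654. The Slfn1 call was lost without BMDM WT control library 1 (adjusted p = 0.12) or 2 (adjusted p = 0.0829), BMDM WT DMXAA library 1 (adjusted p = 0.0712) or BMDC WT DMXAA library 1 (adjusted p = 0.0538). Control and DMXAA libraries of a number deviated together within WT. With that number as a block within genotype 4 members passed, adding Slfn4 at -4.10 (adjusted p = 8.8e-05) and Slfn2 at -1.18 (adjusted p = 0.011), both with a smaller response in BMDCs.

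The libraries numbered 3, 1 pair for each label, showed another balance of the family. Slfn9 was their most abundant member in control, at 13.2 FPKM in WT and 8.77 in CRE, above the 3.87 to 7.13 of the other control BMDMs. Under DMXAA it read 34.3 and 25.7 FPKM, a ratio of 2.6 in WT with a counting interval of 2.46 to 2.74 and of 2.93 in CRE with 2.74 to 3.14. Slfn2 went from 5.11 to 49.0 FPKM in WT and from 5.93 to 52.8 in CRE. Slfn8 went from 0.751 to 10 in WT and from 0.173 to 5.90 in CRE. Slfn5, at 11.6 to 14.01 FPKM in the other control BMDMs, was near the floor, with 5 and 18 counts in WT and 1 and 11 in CRE. Slfn4 had 162 and 73 counts under DMXAA against 1 and 0 in control, and Slfn1 had at most 3 counts in these libraries. Intervals cover counting error only, since each label has a single library per condition.

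The type I interferon pathway was followed beside the family as a list of 20 genes, all of which were tested. In WT BMDCs 17 rose, beside 17.0% of all tested genes, while 1 fell and 2 did not pass. In WT BMDMs 17 rose, beside 18.4% of all tested genes, and 3 did not pass. The interferon-induced transcription factor Irf7 rose by a log2 of 7.23 ± 0.36 in WT BMDCs and 8.43 ± 0.31 in WT BMDMs. Irf3, the factor that STING signalling activates as a protein, fell by 0.59 on the log2 scale in WT BMDCs, while the receptor chain Ifnar1 did not pass in either culture. In CRE BMDMs 15 rose, beside 7.28% of all tested genes, and 5 did not pass. Under DMXAA 13 of the 20 were lower in CRE than in WT BMDMs and 0 were higher, where 19.3% of all tested genes were called in either direction. The median log2 difference was -1.55 over the list, beside -1.29 over the 7 members. Irf1, a factor of the same family, was lower by -2.10 ± 0.15 (adjusted p = 0.0011) and Irf7 by -0.89 ± 0.22 (adjusted p = 0.0364). In BMDCs 0 of the 20 differed between the labels under DMXAA.

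**Figure D5:**
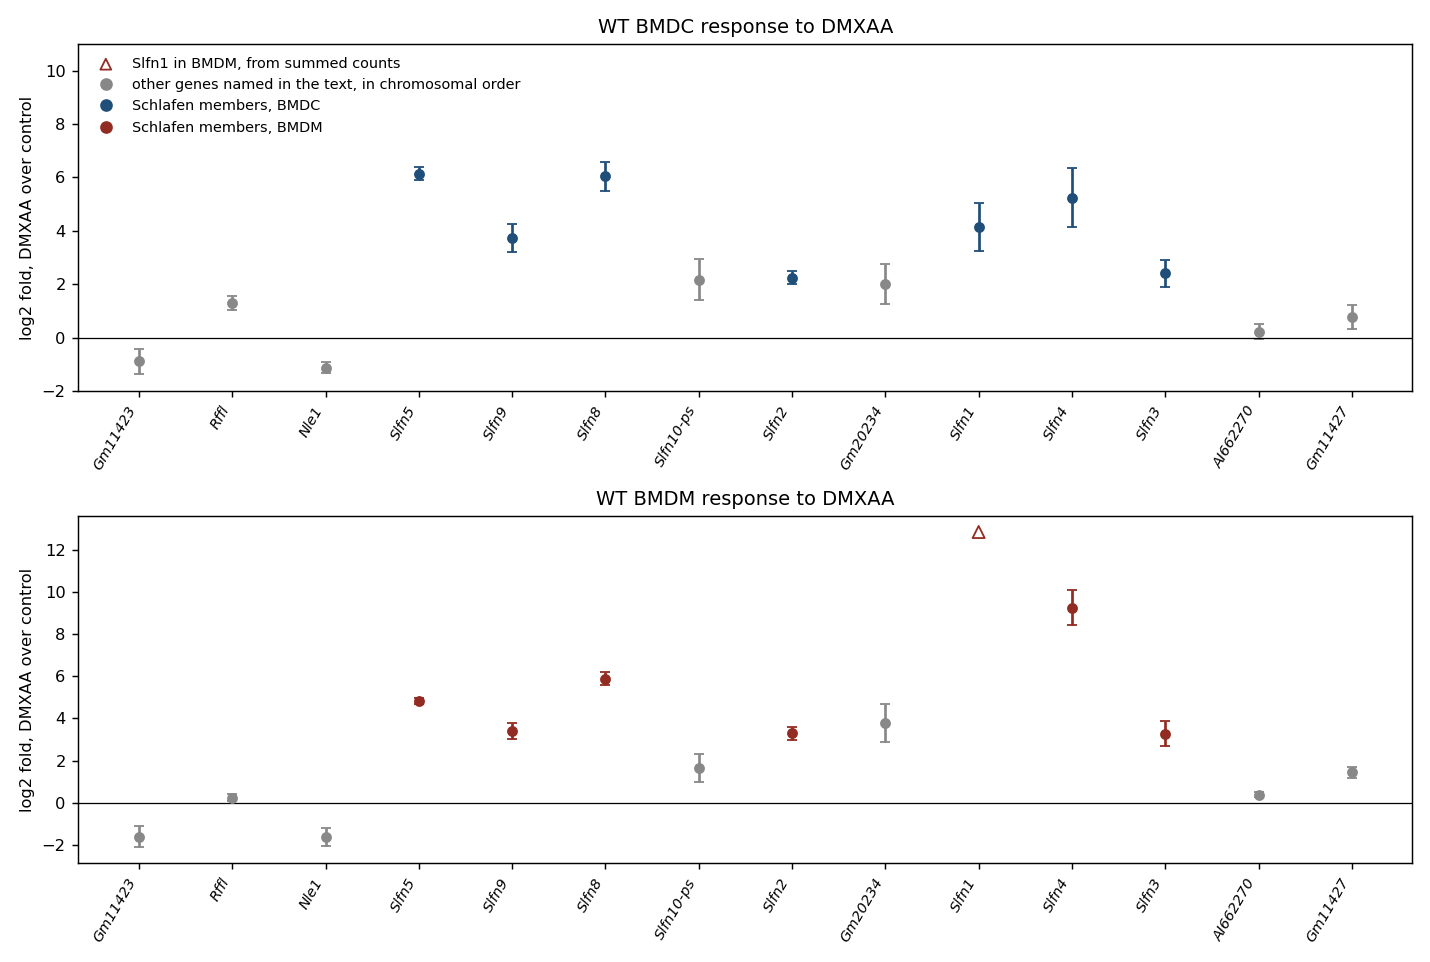
log2 fold change of DMXAA over control with SE for the members and the neighbours named in the text, in chromosomal order, in WT BMDCs (top) and WT BMDMs (bottom); coloured points are members, grey points the neighbours, and the open triangle is Slfn1 in BMDMs from summed counts. The members lie between 2.25 and 12.8, and the plotted genes outside the block between -1.62 and 1.44.

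Genes beside the block moved less. Of 26 entries within 250 kb outside it, 12 were tested in BMDCs and 11 in BMDMs. In WT BMDCs 1 of the 12 rose, beside 17.0% of all tested genes. It was Rffl, a ubiquitin ligase gene, by a log2 of 1.31 ± 0.26 (adjusted p = 0.0028). Another 2 fell there, among them Nle1 by 1.12 on the log2 scale. In WT BMDMs 2 of the 11 rose, beside 18.4% of all tested genes. They were the transcribed pseudogene Gm11427 by 1.44 ± 0.27 (adjusted p = 0.0063) and AI662270 by 0.38 ± 0.12 (adjusted p = 0.0392). Nle1 and the antisense gene Gm11423 fell there, by 1.62 and 1.60. Gm11427 holds 2.75% of the 100-base words of Slfn3 transcripts, so part of its reads may not be told apart from those of Slfn3. Inside the block Slfn10-ps differed by 2.17 ± 0.78 in WT BMDCs (adjusted p = 0.0527) and 1.65 ± 0.66 in WT BMDMs (adjusted p = 0.0904). The antisense gene Gm20234 over Slfn2 rose by 3.78 ± 0.88 in WT BMDMs (adjusted p = 0.0199), and the strand setting of the counting is not stated, so its reads and those of Slfn2 cannot be told apart. Of the other entries with a Schlafen name, Slfn5os had 24 counts in all libraries together, Slfnl1 11 and Slfn14 0.

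By Pearson's r of log2(CPM + 0.5) over the 20 libraries, the tested genes outside the family with the most similar pattern were named for each member. Slfn5 was closest to Ifi204 (r = 0.995), an interferon-inducible gene of the PYHIN family, then to Oasl2 (0.991) and Rtp4 (0.988). Slfn8 was closest to Oasl2, Znfx1 and Samd9l (0.992 each), and Slfn9 to Lgals3bp (0.973), Rbm43 and Oas3 (0.971 each). Slfn2 was closest to Mlkl (0.982), the executor of necroptosis, Ifi35 (0.98) and Chmp4b (0.978). Slfn1 was closest to A530040E14Rik (0.973), Fgl2 (0.966) and Tap2 (0.962), Slfn4 to Otud5 (0.983), Atp10a (0.981) and Slc25a12 (0.97), and Slfn3 to Adar (0.97), Gm5431 (0.966) and 9930111J21Rik2 (0.963). These libraries share treatment and cell type, so each r pools the step from control to DMXAA with the step between cell types.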

How the data were processed

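The authors deposited raw counts per gene and FPKM values for 24 libraries in a single table, and all 48 per-library columns were matched to the labels, with 0 left over. Per the labels' processing notes, CASAVA 1.8, fastp, HISAT2 2.0.5, featureCounts 1.5.0-p3 and DESeq2 1.20.0 were used on GRCm38 (mm10). Strand setting and the handling of reads with several matches are not given in the sources used here. The deposited FPKM values rest on an effective library size that is not the plain sum of counts. The authors' comparison columns (group means, fold changes, p-values) were not used.

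Counts were scaled by TMM and tested two-sided with edgeR 4.0.16 (quasi-likelihood) under R 4.3.3, in separate fits of 12 BMDC libraries, 8 BMDM libraries (numbers 1 and 2) and those 20 together for cell types. A gene was tested if 3 or more libraries (2 in the BMDM fit) reached an FPKM of 1, and p-values were adjusted over all of them by Benjamini-Hochberg. SEs are the absolute log2 change over the square root of F. A floor of 3 counts per library stood in for 0. The fits were checked on simulated data. DESeq2 1.42.0 and limma 3.58.1, the latter on log2(FPKM + 1), were alternatives.

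The members, gene lists and comparisons were chosen with earlier results of these data known. Named genes were the members, Tmem173, other table entries starting with Slfn, the interferon list, the neighbours and the 3 most similar genes per member. Some named genes are not reported here. Promoter windows came from RefSeq GRCm38.p6. Gene coordinates in the table equalled GENCODE M21 for 7 of 7 members. Within a BMDC label, control and DMXAA libraries of the same number deviated together (r = 0.417 to 0.673 in WT and 0.541 to 0.689 in CRE), so the numbers pair there. Across labels they did not, and BMDMs 1 and 2 gave only 2 pairs. Summed marker lists not given in the report were, for dendritic cells, 5940 to 9930 CPM in BMDCs, 166 to 635 in BMDMs 1 and 2 and 14.2 to 71.4 in number 3. Macrophage and fibroblast lists read 2040 to 8950 and 58.7 to 176 CPM in BMDCs, the neutrophil list 14.6 to 36.5 in BMDMs 1 and 2 and 2.09 to 5.77 in number 3, and the lymphocyte list 0.0 to 2.08 over all libraries. Total counts of 15657347 to 18912887 limit precision for members with few counts, and the intervals of ratios from summed counts cover counting error only, while those of edgeR differences rest on the spread between libraries.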

Additional observations from a re-analysis of the deposited data

Results flagged for a closer look

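The response of Slfn5 to DMXAA differed between groups in 2 of the 3 tests of a difference of responses, and in BMDCs the genotype by DMXAA interaction was -0.25 ± 0.27 (edgeR, adjusted p = 1.0). It was smaller in CRE than in WT BMDMs by a log2 of -0.99 ± 0.17 (edgeR, adjusted p = 0.0355), with the direction shared by Slfn2, Slfn3, Slfn4, Slfn8 and Slfn9, which did not pass. That call was lost without WT DMXAA library 1 (adjusted p = 0.0625) or any of the 4 CRE libraries (adjusted p = 0.185 to 0.217). It was larger in WT BMDCs than in WT BMDMs by 1.27 ± 0.26 (edgeR, adjusted p = 0.0154), from a control level that was lower in BMDCs, and this was lost without BMDM WT DMXAA library 1 (adjusted p = 0.0654). The response of Slfn1 also differed between the cell types (edgeR, adjusted p = 0.022), on control BMDM counts of 0 and 1, a call lost without any of 4 single libraries (adjusted p = 0.0538 to 0.12).

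The BMDM libraries numbered 3, which entered only the fits with all 12 BMDM libraries, held DMXAA signal of 6 members above their own controls. The share of all genes with such a separation was not counted, and with 2 libraries a side it is weak. The lower of the 2 DMXAA libraries read 49.0 FPKM for Slfn2 against at most 5.93 in control, 25.7 for Slfn9 against 13.2 and 5.90 for Slfn8 against 0.751. It read 0.753 for Slfn4 against 0.0106, 0.12 for Slfn3 against 0.0277 and 0.0711 for Slfn5 against 0.0333. Slfn3 had 10 to 23 counts under DMXAA and Slfn5 had 11 to 18. For Slfn3 in CRE the counting interval of the ratio, 0.922 to 40.6, included no change. These libraries carried fibroblast markers and few macrophage markers, and the part of that in the Schlafen values was not tested.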

How the results depend on the processing

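In BMDCs 7 members rose in each genotype and 0 differed between the labels under every alternative run, and leaving out single libraries gave 7 to 7 and 0 to 0. In WT BMDMs 7 rose under every alternative except all 12 libraries (0). In CRE BMDMs leaving out single libraries gave 5 to 5 members and all 12 libraries 0. For CRE against WT BMDMs under DMXAA, 4 members in the report, median of ratios scaling, DESeq2, both limma fits and the compared groups only each gave 5, an FPKM minimum of 5 gave 6 and no FPKM filter 3. Leaving out single libraries gave 0 to 5, and all 12 libraries gave 0 without and 0 with the replicate block. In control, single libraries gave 0 to 1, the 1 without WT control library 1. The BMDM interaction, 1 member in the report, gave 2 with DESeq2, 2 and 2 with limma at pseudocounts of 1 and 0.1, 3 with a replicate block within genotype, 0 to 2 without single libraries, and 0 with all 12 libraries, with or without the block. Between cell types, single libraries gave 2 to 4 in control, where all BMDM libraries gave 3, 1 to 3 under DMXAA and 0 to 2 for the interaction. The interaction gave 1 with limma at a pseudocount of 1, 4 with a replicate block within genotype and 0 with all 12 BMDM libraries, which also gave 0 under DMXAA. The cause of these shifts was not tested. Where a group was left with 1 library, that library was assumed to vary like the other groups.

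Among single-member values called in the report's fits, 553 stayed called with the same sign, 72 lost the call and 0 changed sign. Of the values not called, 44 changed sign, and others kept their sign and gained a call. An example is Slfn8 in the BMDM interaction, at -1.40 with DESeq2 (adjusted p = 0.007). These tallies leave out CRE against WT in control in both cell types and the BMDC interaction, whose alternatives were tallied by member counts alone. In CRE against WT BMDCs under DMXAA, Slfn3 became -0.017 and -0.031 with limma at the larger and smaller pseudocount, and Slfn9 0.0064 with an FPKM minimum of 5. Without single libraries the ranges there were -0.58 to 0.17 for Slfn1, -0.19 to 0.10 for Slfn2, -0.51 to 0.38 for Slfn3, -0.49 to 0.44 for Slfn4, -0.22 to 0.043 for Slfn5, -0.27 to 0.27 for Slfn8 and -0.29 to 0.25 for Slfn9. In the BMDM interaction Slfn1 was 0.49 with edgeR, -0.38 with DESeq2 and -1.65 and -1.52 with limma (adjusted p = 0.0177 and 0.0481), on BMDM control counts of 0 and 1. Without single libraries it ran from -1.68 to 1.26, Slfn3 from -1.60 to 0.37 and Slfn4 from -1.63 to 0.83. In WT BMDCs against BMDMs in control, Slfn3 was 0.035 and 0.16 with limma and 0.52 with all BMDM libraries, and without single libraries Slfn3 ran from -0.75 to 1.23 and Slfn2 from -0.086 to 0.88. In the cell type interaction limma gave -0.48 for Slfn8 and -0.048 for Slfn9, and without single libraries they ran from -0.17 to 0.57 and from -0.17 to 0.72.

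The replicate block over labels gave 6 members for CRE against WT BMDMs under DMXAA, and the blocks changed no member call in BMDCs. No block could be fitted for the WT cell type differences in control or under DMXAA. Depth limits Slfn1 and Slfn4 in control BMDMs and most members in the libraries numbered 3.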
